A study of Homo sapiens with 2 samples.

Results

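The genes described here are 9 regulators of the midbrain-hindbrain boundary, EN1, EN2, GBX2, FGF8, FGF17, WNT1, PAX2, PAX5 and PAX8, and the OTX2 binding peaks found around them. They are 9 of 19881 protein-coding genes on the chromosomes, and they were chosen by name, with earlier results of these data known. A peak was assigned to a gene when at least 1 bp of it overlapped the GENCODE gene record in GRCh38 extended by 100 kb on each side, which gave 101 of the 137412 peaks. OTX2-bound DNA was measured by ChIP-Seq in tumorspheres of D283, an established medulloblastoma cell line, with 1 OTX2 ChIP library and 1 input library made without antibody. Both libraries came from OTX2-expressing control tumorspheres that received no treatment and grew in a neural proliferation medium with epidermal and basic fibroblast growth factor. The paper calls the ChIP-Seq tumorspheres OTX2-high, its name for scramble siRNA controls, and does not state whether these carried that siRNA. The peak caller counted 84980793 ChIP fragments and 32292980 input fragments, and without duplicates 61259377 and 22521186 were left. Because each library was single, no value has a replicate error, and the 95% intervals given below are exact Poisson intervals that cover counting error only.

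The midbrain-hindbrain boundary, or isthmus, forms in the neural tube where the territory of OTX2, a homeodomain factor of the forebrain and midbrain, meets that of GBX2, a homeodomain factor of the anterior hindbrain. The isthmus secretes FGF8 and related FGFs, WNT1 is made on its midbrain side, and the Engrailed factors EN1 and EN2 and the paired-box factors PAX2, PAX5 and PAX8 keep the signals going. The boundary patterns the midbrain and the cerebellum, the region in which medulloblastoma arises, and OTX2 and GBX2 are known to restrict each other in the embryo. OTX2 binds DNA through its homeodomain, which recognises TAATCC and the related TAATCT.

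All 9 genes had at least 1 peak in the extended record, as did 97.3% of all protein-coding genes, so this count says little about the boundary genes. Peaks near the start of the gene were fewer. The window reaching 5 kb upstream and 2 kb downstream of the transcription start site (TSS, the 5′ end of the gene record) held a peak in 2 of the 9 genes, EN1 and FGF8, beside 57.2% of all protein-coding genes. The other 7 genes, EN2, GBX2, FGF17, WNT1, PAX2, PAX5 and PAX8, had OTX2 peaks only outside this window. When any annotated transcript start of a gene was allowed, the count rose to 5 of 9 through FGF17, PAX5 and PAX8, against 66.6% of all genes.

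Promoter sequences are shown for 4 of the places where a peak of a boundary gene covered the start of another RefSeq transcript. They are RefSeq promoters of GRCh38.p14, trimmed to the part inside the peak and to at most 25 bases past the start, and written 5′ to 3′ on the strand of the transcript. Capitals mark TAATCC and TAATCT read on either strand, so that GGATTA and AGATTA are the same motifs on the opposite strand. CNPY1 lies under the only peak of EN2, LOC105369757 under the peak nearest to WNT1, LOC105376031 under the peak nearest to PAX5, and NPM3 under the FGF8 peak nearest to its TSS.
CNPY1 (chr7:155533838-155534073, minus strand): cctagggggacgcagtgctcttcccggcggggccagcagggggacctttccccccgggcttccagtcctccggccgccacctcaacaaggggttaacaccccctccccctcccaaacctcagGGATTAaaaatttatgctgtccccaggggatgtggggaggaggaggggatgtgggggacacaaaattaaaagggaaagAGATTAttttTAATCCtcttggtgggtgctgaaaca
LOC105369757 (chr12:48986946-48987220, minus strand): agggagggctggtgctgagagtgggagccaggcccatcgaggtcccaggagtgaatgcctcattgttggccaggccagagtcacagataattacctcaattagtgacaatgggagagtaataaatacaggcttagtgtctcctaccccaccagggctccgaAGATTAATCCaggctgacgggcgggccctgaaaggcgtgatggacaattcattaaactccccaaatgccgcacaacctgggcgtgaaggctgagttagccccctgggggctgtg
LOC105376031 (chr9:37027695-37027969, plus strand): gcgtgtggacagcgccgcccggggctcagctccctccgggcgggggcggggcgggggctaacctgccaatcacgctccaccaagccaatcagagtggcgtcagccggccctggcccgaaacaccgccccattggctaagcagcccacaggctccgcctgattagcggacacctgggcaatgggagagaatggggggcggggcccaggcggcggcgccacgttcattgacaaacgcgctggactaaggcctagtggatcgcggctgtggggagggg
NPM3 (chr10:101783422-101783491, minus strand): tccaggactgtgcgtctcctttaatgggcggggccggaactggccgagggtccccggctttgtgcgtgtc

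The CNPY1 stretch held 3 motifs, whose centres lay 33.5 to 54.5 bp from the summit of the EN2 peak. In the LOC105369757 stretch a TAATCT on the opposite strand overlapped a TAATCC, and their centres lay 6.5 and 10.5 bp from the summit of the peak next to WNT1. No motif was present in the stretches of LOC105376031 and NPM3. Of the promoter stretches not shown, those of ASB18, OGA, ARF3, PRKAG1, KMT2D, LOC105376034 and ZCCHC7 held no motif. That of KCNIP2-AS1, under an FGF8 peak, held 1, and an overlapping stretch of LOC105369757 held the motifs already given. These letters occur often, since 12.8% of all 35116 RefSeq promoters held at least 1 of the motifs, 13.3% of those with a peak and 12.5% of those without one. A match is therefore only a description of the sequence.

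EN1 and EN2 encode the Engrailed homeodomain repressors that define the midbrain-hindbrain territory. EN1 (chr2:118842171-118847648, minus strand) had 3 peaks, all of which had EN1 as the nearest protein-coding TSS. The tallest was also the closest, at chr2:118847484-118848172, with its summit 294 bp upstream of the TSS, and it was the only peak of the 9 genes with a summit within 1 kb of their TSS. It reached 49 ChIP fragments (interval 36.3 to 64.8), and its fold enrichment over the local input, as given by the authors' peak caller, was 7.43. The other EN1 peaks held 41 fragments at 8127 bp upstream and 38 fragments at 58796 bp downstream of the TSS, the latter in an intron of the long noncoding RNA gene LINC01956. The intervals of the 3 peaks overlapped, so their heights did not differ beyond counting error.

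EN2 (chr7:155458129-155464831, plus strand) had 1 peak, at chr7:155533777-155534073, 75786 bp downstream of its TSS. No summit lay inside the EN2 record or upstream of it within the extended record. The peak held 31 fragments (interval 21.1 to 44) at a fold enrichment of 4.77, and 18.2% of all peaks were lower. Its summit lay in intron 2 of CNPY1 in GENCODE and 53 bp upstream of the RefSeq start of CNPY1, in the promoter printed above. CNPY1 belongs to the Canopy family, which is linked to FGF signalling at the boundary. It had 2 peaks in its own extended record, 0.711 per 100 kb. Peaks were sparser on chromosome 7 as a whole, with 2.73 per 100 kb against 4.91 on the other autosomes.

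GBX2 (chr2:236165236-236168386, minus strand), the hindbrain counterpart of OTX2, had 4 peaks, none inside the gene and none in the window around its TSS. The tallest, at chr2:236117830-236118334, held 131 fragments (interval 109.5 to 155) at a fold enrichment of 13.9. Its summit lay 50314 bp downstream of the TSS of GBX2, in intron 16 of the neighbouring gene AGAP1, which encodes a GTPase-activating protein for ARF, and GBX2 was still its nearest protein-coding TSS. A peak 13585 bp downstream held 83 fragments at a fold enrichment of 12.4. The nearest peak, 10938 bp upstream in an intron of the antisense gene GBX2-AS1, held 34 fragments. A peak of 25 fragments 95878 bp upstream lay at the start of ASB18. Thus the 2 peaks downstream of GBX2 were taller than the 2 upstream, and the intervals of 109.5 to 155 and 66.1 to 102.9 for the downstream peaks did not overlap those of 23.5 to 47.5 and 16.2 to 36.9 for the upstream peaks.

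**Figure D1:**
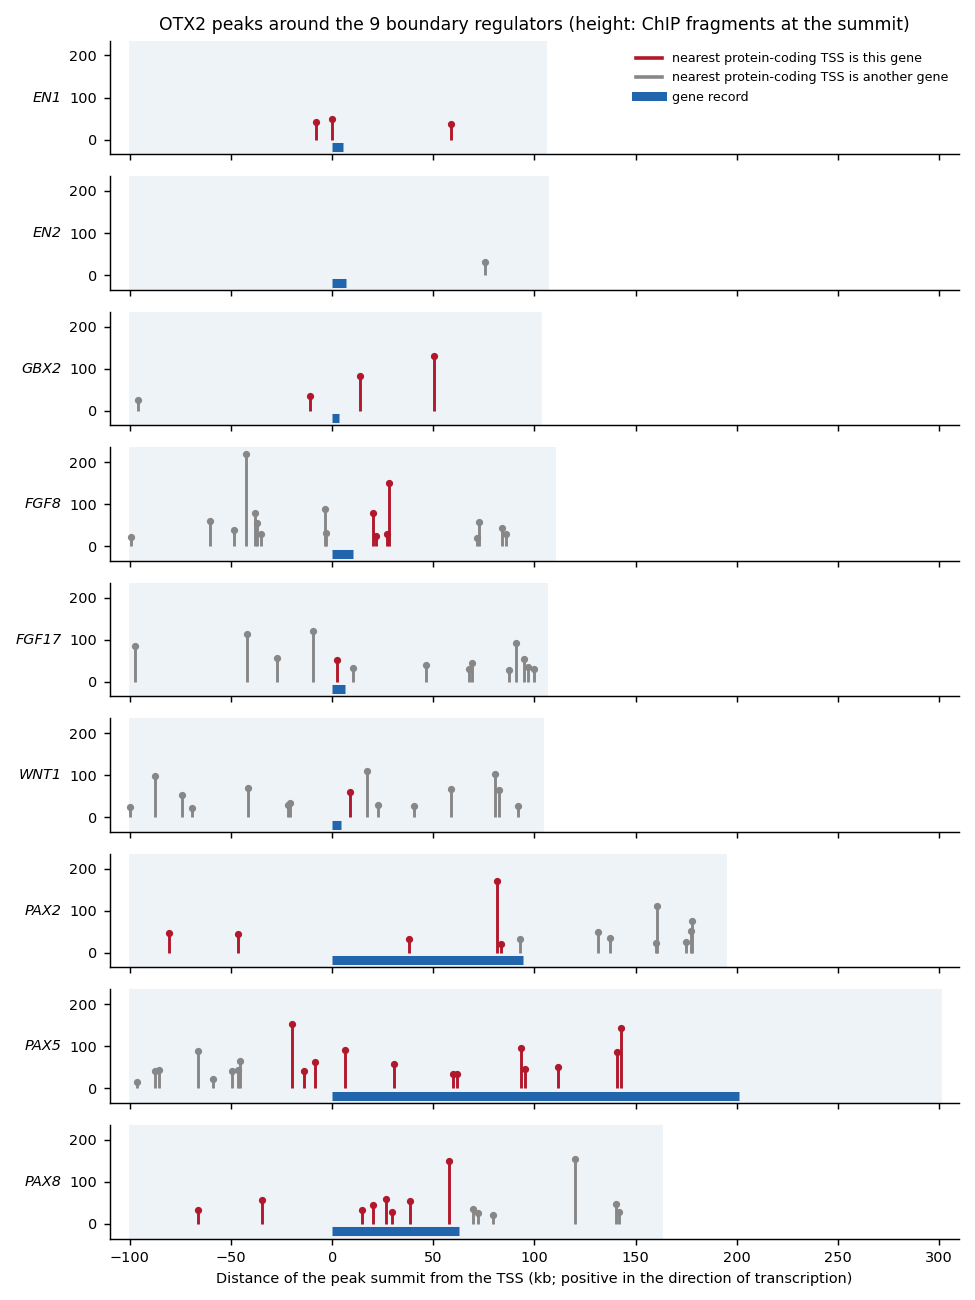
OTX2 peaks of each gene by distance of the summit from its TSS in kb (horizontal axis, positive in the direction of transcription) and by ChIP fragments at the summit (vertical axis). The pale band is the extended record, the blue bar the gene record, and red or grey peaks have this or another gene as the nearest protein-coding TSS; EN1, EN2 and GBX2 have 3, 1 and 4 peaks and FGF8 has the tallest, 218 fragments.

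FGF8, FGF17 and WNT1 encode the secreted signals of the boundary. FGF8 (chr10:101770109-101780371, minus strand), the organiser signal itself, had 17 peaks, 8.09 per 100 kb (interval 4.71 to 12.9), and the tallest peak of the 9 genes. Its density was the highest among all deposited peaks, but not among stricter ones: with a −log10 q of at least 5 it was 6.18, beside 6.78 for FGF17 and 6.36 for WNT1, and among peaks enriched at least 5-fold it was 3.80, beside 4.36 and 3.92. That peak, at chr10:101822349-101823043, held 218 fragments (interval 190 to 249) at a fold enrichment of 32.3, and 94.9% of all peaks were lower. It lay 42379 bp upstream of the TSS of FGF8 but only 4285 bp upstream of that of OGA, which encodes the enzyme that removes O-linked N-acetylglucosamine from proteins.

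No FGF8 peak had its summit inside the gene record. Both peaks in the TSS window of FGF8 also lay in that of NPM3, a histone chaperone gene whose TSS was nearer to them. The one at chr10:101783753-101784316, 3568 bp upstream of FGF8, held 89 fragments (interval 71.5 to 109.5) at a fold enrichment of 13.3. The one at chr10:101783258-101783491, 3045 bp upstream of FGF8 and in exon 1 of NPM3, held 32 fragments (interval 21.9 to 45.2) at a fold enrichment of 3.07. Of the 17 peaks, 4 had FGF8 as the nearest protein-coding TSS, and these lay together between 20421 and 27878 bp downstream of the TSS, in the stretch between FGF8 and FBXW4. The tallest of this cluster, singled out after the values were seen, held 151 fragments (interval 128 to 177) at a fold enrichment of 22.5, and another held 78 at a fold enrichment of 11.7. The remaining members of the cluster held 29 and 25 fragments.

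FGF17 (chr8:22042398-22048809, plus strand), an FGF8 subfamily ligand, had 14 peaks, 6.78 per 100 kb. Its tallest, at chr8:22031726-22033247, held 121 fragments (interval 100.4 to 145) at a fold enrichment of 18.0. It lay 9432 bp upstream of FGF17 in intron 5 of NPM2, which encodes an oocyte histone chaperone. The nearest peak lay inside FGF17, in intron 2, 2521 bp downstream of the TSS, with 51 fragments (interval 38.0 to 67.1) at a fold enrichment of 7.72. It was the only FGF17 peak nearest to the TSS of that gene. Its summit lay 247 bp downstream of the start of another FGF17 transcript, and it also fell in the TSS window of DMTN, a gene for an actin-bundling protein. The RefSeq and GENCODE starts of FGF17 were 2726 bp apart, so the window depends on the annotation.

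WNT1 (chr12:48978322-48982620, plus strand), the WNT ligand of the midbrain side, had 15 peaks, 7.34 per 100 kb, none of them in the gene. The nearest, at chr12:48986563-48987245, lay 8724 bp downstream of the TSS, held 61 fragments (interval 46.7 to 78.4) at a fold enrichment of 9.20, and was the only one nearest to the TSS of WNT1. It covered the RefSeq start of LOC105369757 printed above. The tallest, 17237 bp downstream in exon 2 of DDN, the gene for dendrin, held 109 fragments (interval 89.5 to 131) but reached a fold enrichment of only 6.76. There the local input was 11.0 pileup units against the floor of 3.99 units that the background took where input reads were few. The highest fold enrichment, 15.4, belonged to a peak of 103 fragments 80561 bp downstream, in intron 1 of the histone methyltransferase gene KMT2D.

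PAX2, PAX5 and PAX8 form 1 subfamily of paired-box factors that act early at the boundary. PAX2 (chr10:100735396-100829944, plus strand) had 13 peaks, 4.41 per 100 kb, and its nearest peak lay 37745 bp into the gene, in intron 3, with 33 fragments (interval 22.7 to 46.3). The tallest, at chr10:100816696-100817201 in intron 7, held 170 fragments (interval 145 to 198), but the local input there was 15.0 units and the fold enrichment 7.87. The highest fold enrichment was 15.9, at a peak of 111 fragments (interval 91.3 to 134) 160685 bp downstream of the TSS, beyond the end of PAX2 and closer to SLF2. PAX2 was also the only gene of the 9 with a summit in an exon of its own, the last one, exon 10, where 33 fragments were found.

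PAX5 (chr9:36833269-37034268, minus strand) is the longest of the 9 genes and had the most peaks, 20, at 4.99 per 100 kb. Of these, 9 lay in its introns, 11 upstream and 0 downstream, and 12 had PAX5 as the nearest protein-coding TSS. The tallest, at chr9:37053960-37054513, 19966 bp upstream of the TSS, held 153 fragments (interval 130 to 179) at a fold enrichment of 22.8. The nearest, at chr9:37027531-37028040 in intron 1, lay 6515 bp downstream of the TSS, held 90 fragments (interval 72.4 to 111) and had a fold enrichment of 13.5. Its summit was 1178 bp upstream of the start of another PAX5 transcript and 192 bp upstream of LOC105376031, which runs the other way. Among the intronic peaks, those of 144 fragments in intron 7 and 96 fragments in intron 6 were singled out after the values were seen, with fold enrichments of 11.9 and 14.4. In all, 5 of the 20 peaks reached a fold enrichment of 10, the most for any of the 9 genes.

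PAX8 (chr2:113215997-113278921, minus strand) had 14 peaks, 5.32 per 100 kb, of which 6 lay in its introns. The tallest, at chr2:113158671-113159375, held 155 fragments (interval 132 to 181) at a fold enrichment of 20.2, but it lay 119913 bp downstream of the TSS of PAX8 and 1683 bp downstream of that of PSD4, which encodes an exchange factor for ARF6. A peak in intron 10 of PAX8, chosen after the values were seen, was of like height, with 150 fragments (interval 127 to 176) at a fold enrichment of 18.5. It lay 57688 bp downstream of the TSS and 756 bp upstream of the start of a short PAX8 transcript. The nearest peak to the TSS, 14849 bp downstream in intron 2, held 32 fragments (interval 21.9 to 45.2) at a fold enrichment of 4.92.

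Ranked by peak density, the 9 genes ran from FGF8, WNT1 and FGF17 over PAX8, PAX5 and PAX2 to GBX2, EN1 and EN2. This order changed with the flank. At 20 kb PAX8 (8.74 per 100 kb) stood above WNT1 (6.77) and FGF17 (6.46), and GBX2 (4.63) and EN1 (4.40) stood above PAX2 (2.97), while EN2 had 0 peaks. At 250 kb FGF17 (4.34) fell below PAX8 (5.86) and PAX5 (5.42) and just below PAX2 (4.37), and EN1 (2.37) stood above GBX2 (1.59). Among all protein-coding genes at 100 kb, 79.2% had a lower density than FGF8, 51.6% than PAX8, 16.6% than GBX2, 12.1% than EN1 (1.46 per 100 kb) and 4.60% than EN2 (0.484 per 100 kb). Every pair of neighbours in this order had overlapping intervals. The interval of FGF8, 4.71 to 12.9 peaks per 100 kb, did not overlap those of EN1, 0.301 to 4.27, and EN2, 0.0122 to 2.70. The median of the 9 genes, 4.99 peaks per 100 kb, lay close to that of all genes, 5.18.

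**Figure D2:**
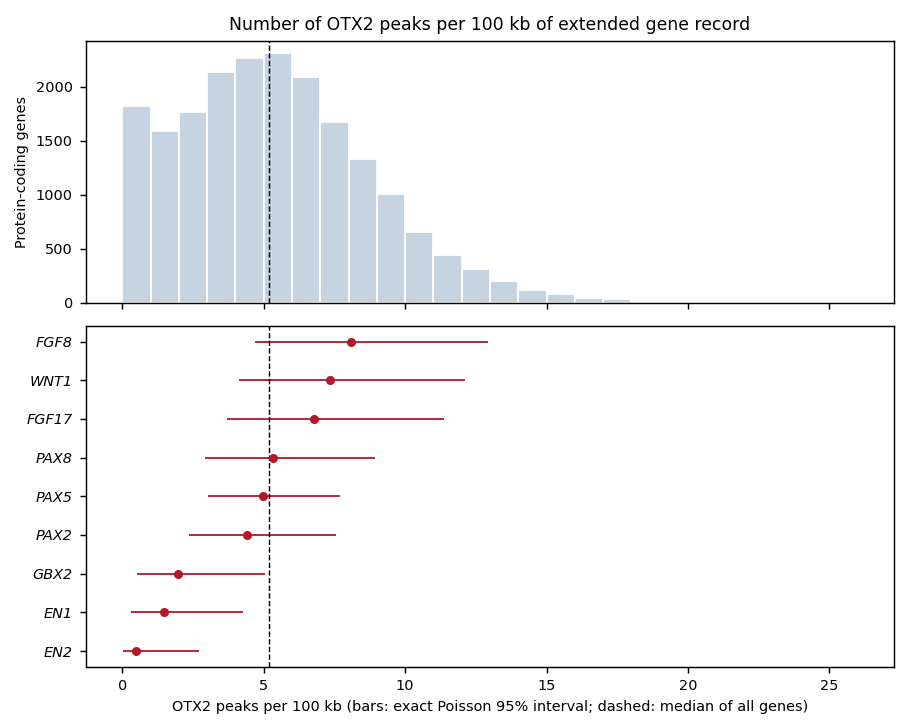
OTX2 peaks per 100 kb of extended gene record (horizontal axis), as the number of protein-coding genes in steps of 1 (top) and for each of the 9 genes with its exact Poisson 95% interval (bottom). The dashed line is the median of all genes, 5.18, and EN1, EN2 and GBX2 have intervals wholly below it. The interval of GBX2, 0.536 to 5.04, includes the 4.79 peaks per 100 kb of its chromosome 2. That of EN2 ends at 2.70, just under the 2.73 of chromosome 7.

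Ranked by the tallest peak, the order was FGF8, PAX2, PAX8, PAX5, GBX2, FGF17, WNT1, EN1 and EN2. Local input is not allowed for in this order. At the tallest peaks of PAX2 and WNT1 the fold enrichment was 7.87 and 6.76, beside 7.43 at that of EN1. Without peaks of high local input, PAX2 fell to 81.6 units, below GBX2 (96.3 units) and FGF17 (89.0 units). Neighbours in this order overlapped in their intervals except WNT1, at 89.5 to 131 fragments, and EN1, at 36.3 to 64.8. In fragments at the tallest summit within this flank, the Engrailed genes stood apart from the other 7 by more than counting error. For EN1 this rested on peaks nearer to other genes. The tallest peaks of FGF17 and WNT1 had NPM2 and DDN as the nearest protein-coding TSS. The peaks nearest to their own TSS held 51 (interval 38.0 to 67.1) and 61 fragments (interval 46.7 to 78.4), and both intervals overlapped that of EN1. At 250 kb the separation by tallest peak ended for EN1, whose tallest pileup rose from 36.0 to 232 units. That was above those of WNT1 (209.6 units), PAX5 (228 units), PAX2, GBX2 and FGF17, while EN2 stayed the lowest at 31.6 units. Only FGF8 exceeded the median tallest peak of all genes, 172 fragments, while the median of the 9 genes was 131. The median of the highest fold enrichment per gene was 15.9 for the 9 genes and 19.1 for all genes.

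**Figure D3:**
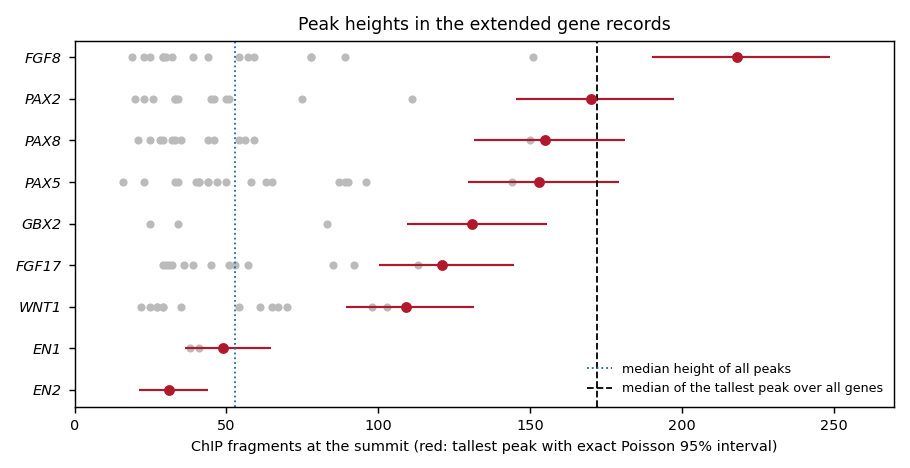
ChIP fragments at the summit (horizontal axis) of all 101 peaks by gene, with the tallest peak in red with its exact Poisson 95% interval and the others in grey. Dotted and dashed lines mark the median of all peaks, 53 fragments, and the median tallest peak over all genes, 172 fragments, which only FGF8 exceeds.

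The 101 peaks ranged from 16 to 218 fragments and from 2.22 to 32.3 in fold enrichment. Their medians were 45 fragments, a fold enrichment of 5.80 and a length of 380 bp, beside 53 fragments, 6.10 and 440 bp for all 137412 peaks. A fold enrichment of at least 10 was reached by 19 of the 101, or 18.8%, against 26.3% of all peaks. By gene these were 5 for PAX5, 4 for FGF8, 3 for FGF17, 2 each for GBX2, WNT1 and PAX8, 1 for PAX2, and 0 for EN1 and EN2. At 54 of the 101 peaks, or 53.5%, and at 32.5% of all peaks the local input was at its floor, so that fold enrichment there followed the pileup alone.

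Summits were upstream of the gene record in 39 cases, downstream in 42, in an intron in 19 and in an exon in 1. Of the 101 peaks, 85 had a summit over 20 kb from the TSS of the boundary gene, or 84.2%, close to the 82.1% found over all protein-coding genes, and 9 lay within 10 kb. The boundary gene held the nearest protein-coding TSS for 37 peaks, or 36.6%, against 34.6% when every protein-coding gene was counted in the same way. By gene these were 12 for PAX5, 8 for PAX8, 5 for PAX2, 4 for FGF8, 3 each for EN1 and GBX2, 1 each for FGF17 and WNT1, and 0 for EN2. In 30 cases, or 29.7%, the peak lay in the TSS window of another gene, against 20.3% over all protein-coding genes, and 8 of these were around FGF17, 8 around WNT1 and 7 around FGF8. The extended record of FGF17 held 7 other protein-coding genes and that of WNT1 held 10, and which gene a peak acts on was not measured.

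**Figure D4:**
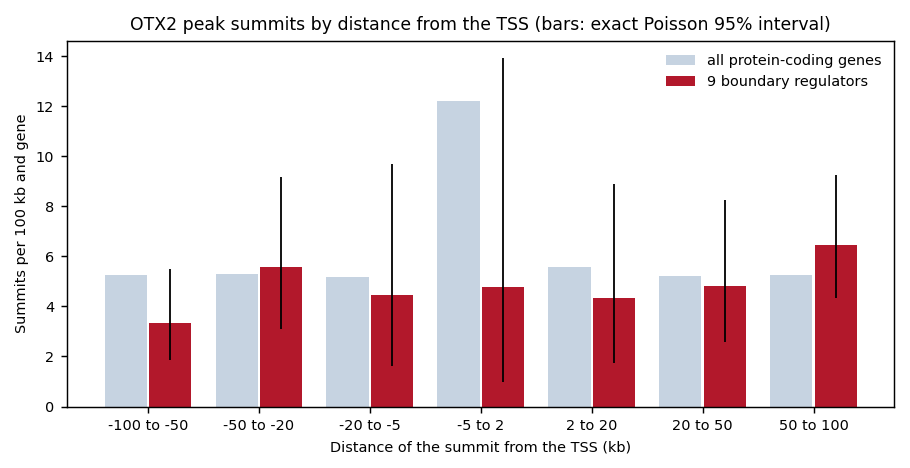
OTX2 peak summits per 100 kb and gene (vertical axis) in ranges of distance from the TSS in kb (horizontal axis, negative upstream) for all protein-coding genes (pale) and the 9 boundary regulators (red, with exact Poisson 95% intervals). All genes rise to 12.2 per 100 kb around the TSS, while the boundary genes stay at 4.76 there, with an interval of 0.982 to 13.9 that includes the value of all genes.

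By distance from the TSS, all protein-coding genes had 12.2 summits per 100 kb in the TSS window and 5.18 to 5.58 in the ranges outside. Around the 9 boundary genes the value in the TSS window was 4.76, from 3 summits, with an interval of 0.982 to 13.9. The difference from all genes was not detectable with so few summits. Outside the window the boundary genes ran from 3.33 between 100 and 50 kb upstream to 6.44 between 50 and 100 kb downstream, and every interval included the value of all genes. The median distance from the TSS to the nearest summit was 8724 bp for the 9 genes and 1735 bp for all genes.

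RefSeq promoters, from 250 bases before to 50 after the start, were matched for 6 of the 9 genes, EN2, GBX2, PAX2, PAX5, PAX8 and WNT1, with 7 promoters in all. None of the 7 overlapped a peak, against 29.99% of all promoters, and none held TAATCC or TAATCT. No promoter was matched for EN1, FGF8 and FGF17, and EN1 and FGF8 were the genes with a peak in the TSS window. The EN1 peak at chr2:118847484-118848172 covered the TSS of EN1, so the 7 promoters do not stand for all 9 genes. Their median GC content was 66.7%, beside 58.7% for all promoters, and EN2 and WNT1 had the highest at 78% and 77%.

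The wider boundary network was represented by 26 genes that include FGF receptors, feedback inhibitors of FGF signalling and further transcription factors. All 26 had a peak in the extended record and 18, or 69.2%, had one in the TSS window, with medians of 6.83 peaks per 100 kb and a tallest peak of 194 fragments. These figures lie above those of the 9 regulators, 2 of 9, 4.99 and 131, and no test was made of the difference. Over all protein-coding genes the shares were 97.3% and 57.2%, and the medians 5.18 per 100 kb and 172 fragments. The network genes were also longer, with a median of 44878.5 bp against 6703 bp, so their extended records were wider. The network genes named next were picked after the values were seen. Among the feedback inhibitors, SPRED2 had 36 peaks and 3 in its TSS window, SPRY1 a summit 50 bp from its TSS, and IL17RD a summit 28 bp from its TSS. Of the ETS factors that respond to FGF, ETV4 had 27 peaks with a tallest of 370 fragments, and ETV5 20 peaks with a highest fold enrichment of 34.0. DMBX1, a homeodomain gene of the midbrain, had a peak of 360 fragments and a highest fold enrichment of 43.2. At the low end IRX2 had 1 peak and CNPY1 had 2.

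The families of the ligands and PAX factors gave a further frame. Beside them, 97.3% of all protein-coding genes had a peak in the extended record and 57.2% in the TSS window. The median of all genes was 5.18 peaks per 100 kb. Of the other 6 PAX genes, 5 had a peak in the extended record and 1, PAX9, in the TSS window, with a median of 2.31 peaks per 100 kb. PAX1 had 0 peaks within the 100 kb and PAX6 had 17. Of the other FGF ligand genes, 18 of 19 had a peak in the extended record and 9 in the TSS window. Their median of 3.87 per 100 kb lay below the 8.09 of FGF8 and the 6.78 of FGF17. Still, FGF23 (13.2), FGF21 (11.3), FGF2 (10.7) and FGF22 (8.31) exceeded FGF8, and FGF6 (6.89) exceeded FGF17. The median tallest peak of the other FGF ligand genes was 215 fragments, beside 218 for FGF8 and 121 for FGF17. All 18 other WNT ligand genes had a peak and 5 had one in the TSS window. Their median was 6.38 per 100 kb against 7.34 for WNT1, while WNT4, WNT10B, WNT2B, WNT5B and WNT7B ran higher, from 7.94 to 10.5. WNT10B, the neighbour of WNT1, had the same tallest peak, of 109 fragments.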

How the data were processed

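ChIP-Seq reads of 1 OTX2 ChIP library and 1 input library of D283 tumorspheres were mapped by the authors to GRCh38 with bowtie2 2.2.4. Narrow peaks were called with MACS2 2.1.0.20140616 at a q-value cutoff of 0.05, keeping 1 fragment per position, and the study states that blacklisted locations were masked. The pileup the authors deposited is a signal: coverage by ChIP fragments at the summit. The file header gives paired-end mode, in which MACS2 counts 2 ends per input fragment, and the ChIP library was scaled down to the number of input ends. A ChIP fragment therefore adds 0.735 units (2 times 22521186 over 61259377), and every pileup was read back as whole fragments (within 0.05). Of the fragment counts, 49.8% were odd, so no smaller step is needed. Fold enrichment, also deposited, is the ratio of the pileup to the local input after adding 1 to both, from which the local input was computed back. The deposited −log10 p-values and q-values belong to single peaks.

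Gene positions came from GENCODE release 44, whose GRCh37 version lists for each exon where it lay in GRCh38, and no coordinate was converted. FGF16 was not used here. Promoters came from RefSeq. Peak counting was tested on simulated data. The scripts ran on Python 3.11.15 with numpy 2.4.6, scipy 1.17.1, pandas 2.3.3 and, for plots, matplotlib 3.10.9. No test was made, since there were no replicates. The members and lists were chosen with earlier results of these data known. The rule for named peaks took the tallest, the nearest to the TSS and those in the TSS window of each gene. Alternatives were stricter peaks, other flanks and windows, summits, any transcript start and, chosen after seeing the data, dropping peaks whose local input reached 3 times the floor.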

Additional observations from a re-analysis of the deposited data

How the results depend on the processing

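The number of peaks followed the flank by construction: 101 peaks at 100 kb became 41 at 20 kb, 61 at 50 kb and 239 at 250 kb. With a fold enrichment of at least 5, 62 peaks were left, fewer because the threshold removes peaks. Genes with a peak around the TSS, 2 in the main window, numbered 1 (EN1) within 1 kb on either side, 5 within 10 kb and 5 with any transcript start, while all protein-coding genes moved to 46.9%, 71.2% and 66.6%. The median of the tallest pileup, 96.3 units, was 210 units with a flank of 250 kb, where 5 of the 9 genes gained a clearly taller peak, EN1 among them. EN2 had no peak left with flanks of 20 kb or 50 kb or with a fold enrichment of at least 5, and at 20 kb the tallest pileups of GBX2 and FGF8 were 61.0 and 111 units. Without peaks of high local input, an alternative chosen after seeing the data, the tallest pileup of PAX2 fell from 125 to 81.6 units. With a fold enrichment of at least 5, counts of single genes moved too: FGF8 fell from 17 peaks to 8, WNT1 from 15 to 8, PAX8 from 14 to 8 and FGF17 from 14 to 9. The number of genes with a peak and of peaks nearest to their own gene stayed within 1.5 times, and the median density, 4.99 per 100 kb, ran from 3.06 (fold enrichment of at least 5) to 4.99 under the alternatives run. Depth limits what single libraries can show, since a peak of 31 fragments has an interval of 21.1 to 44. Where the local input was above its floor, the shallower input also limits the precision of fold enrichments. No paired analysis was possible because only 1 library of each kind existed.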
